A study of Mus musculus with 6 samples.

Results

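The genes of the proteasome were followed in hindlimb muscle at postnatal day 2 (P2), day 7 (P7) and day 14 (P14), all from wild-type mice of mixed strain. Members were the protein-coding genes of the deposited table whose symbol starts with Psm, followed by a letter from a to g and a number, which gave 50 of 39010 genes. By known function, 31 of them encode the constitutive subunits, with 7 in the core alpha ring, 7 in the core beta ring, 9 in the base and 8 in the lid. A further 3 encode inducible catalytic subunits, 2 encode tissue-restricted core subunits, 6 encode activators or an inhibitor, and 7 encode assembly factors. The remaining symbol, Psmc3ip, matches by name only, since it encodes a recombination factor of meiosis. The study profiled neonatal muscle to describe gene expression during myoblast fusion, migration and fibre growth, with 2 biological replicates per stage. Total RNA was depleted of ribosomal RNA before stranded libraries were made. Levels are in FPKM, the number of sequenced fragments scaled by transcript length and by a measure of library size, which is not stated for these values. Whether a library holds muscle of 1 or of several animals is not given in the sources used here.

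The proteasome degrades proteins that carry a chain of ubiquitin. Its barrel-shaped core particle stacks alpha rings, which form the gate, on beta rings, which hold the catalytic sites, and a regulatory particle caps it with a base of ATPases that unfold the substrate and a lid that removes the ubiquitin. Constitutive subunits are made in most cells, while the inducible catalytic subunits replace their constitutive partners under interferon or in immune cells. In skeletal muscle the proteasome degrades sarcomere proteins and is best known for its part in atrophy.

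The libraries of a stage correlated at 0.95 to 0.97 over all tested genes (Pearson's r on the log2 scale, across genes, which are not independent replicates), and 12175 to 13337 genes reached 1 FPKM in a library. The 11 skeletal muscle markers summed to between 5768 FPKM in P2 replicate 1 and 18349 FPKM in P14 replicate 1, with Ttn listed at 0 in P14 replicate 1. Of these 11, 8 were called higher at P14 against P2, compared with 11.5% of all tested genes. All 12 markers of proliferating cells, all 9 tested markers of neutrophils and marrow and 2 of 7 erythroid markers were called lower at P14 against P2. The share of all tested genes called lower was 12.9%. Xist was at 74.7 FPKM in P2 replicate 2, at 61.2 FPKM in P7 replicate 1 and below 1 FPKM in the other libraries. The Y-linked Ddx3y was at 0 and 0.012 FPKM in those libraries and at 13.5 to 28.4 FPKM in the other 4, so sex differed between the replicates of P2 and of P7 and not between those of P14. In whole muscle, fewer cells of a type and less RNA per cell cannot be told apart, and the part of these shifts and of sex in the results on proteasome genes was not tested.

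The 31 constitutive subunits were expressed in every library. Their geometric mean was 27.4 and 39.0 FPKM at P2, 27.5 and 28.8 FPKM at P7, and 51.3 and 39.8 FPKM at P14, given as replicates 1 and 2 here and throughout. Both P14 libraries lay above both P7 libraries, but P2 replicate 2 was almost as high as P14 replicate 2. As a share of all protein-coding FPKM, the 31 subunits took 0.538% and 0.636% at P2, 0.576% and 0.584% at P7, and 0.686% and 0.610% at P14. By this share the P14 and P2 libraries overlapped, while the P14 libraries again lay above the P7 libraries.

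**Figure D1:**
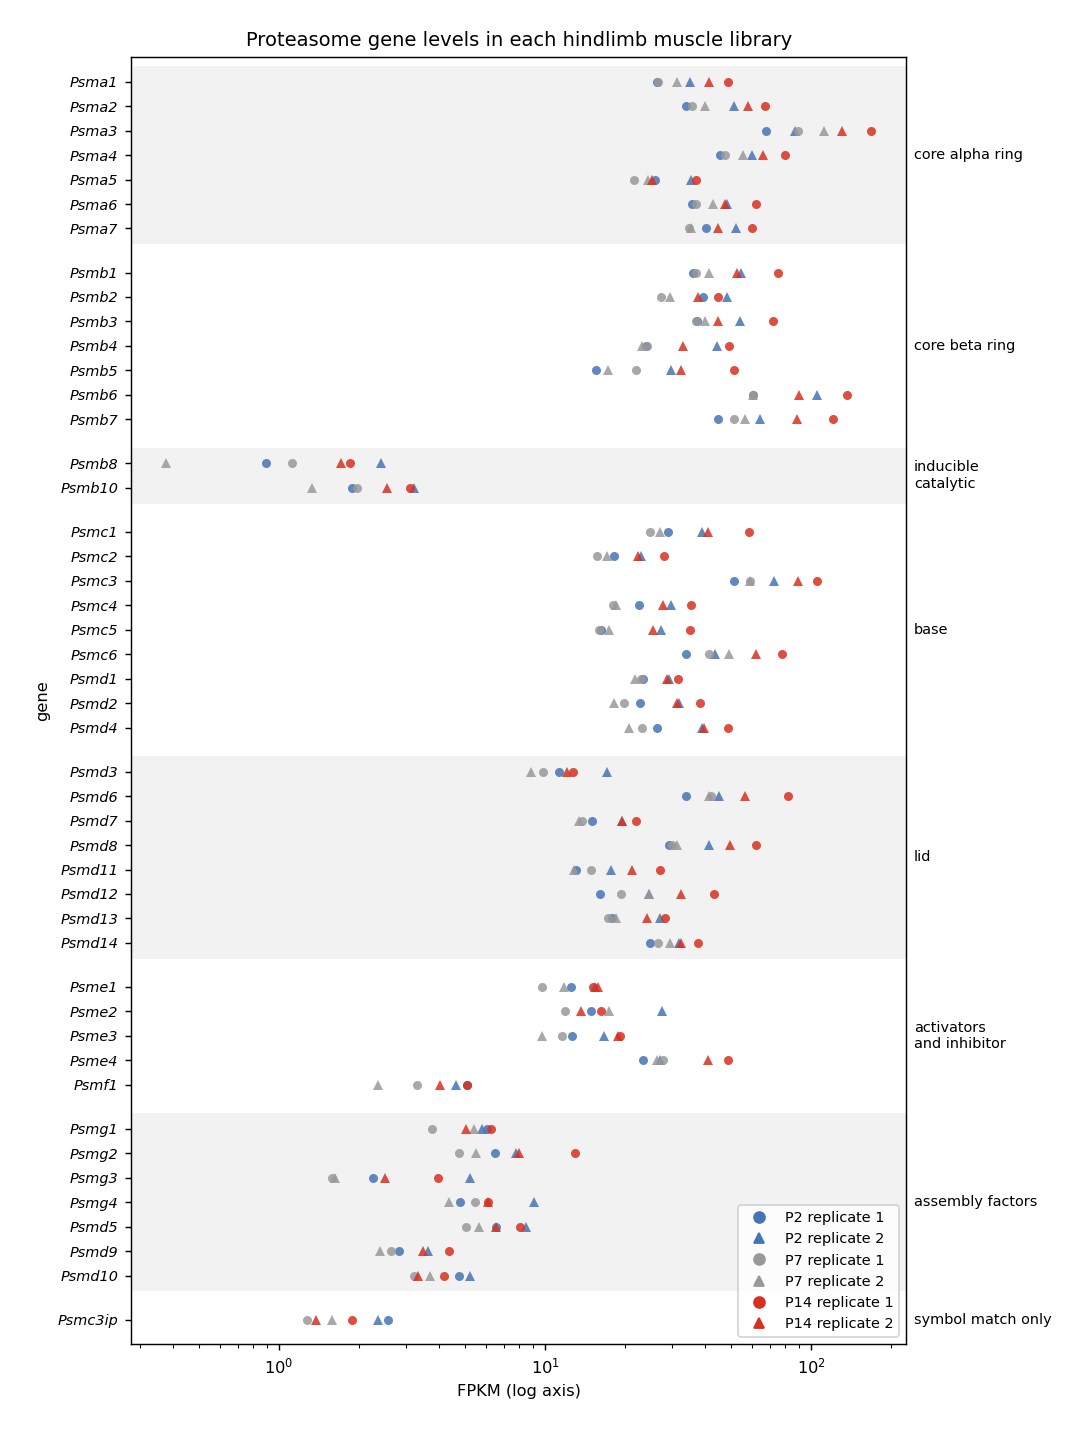
FPKM of the 46 tested members in each of the 6 libraries (horizontal log axis), grouped by role from top to bottom; colour gives the stage, circles replicate 1 and triangles replicate 2. The constitutive subunits lie between 8.85 FPKM (Psmd3 in P7 replicate 2) and 168 FPKM (Psma3 in P14 replicate 1), and the assembly factors and inducible catalytic subunits mostly lie lower.

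Levels differed between the subcomplexes. The core alpha ring had a geometric mean of 37.4 and 50.5 FPKM at P2, 37.9 and 43.3 FPKM at P7, and 66.9 and 52.6 FPKM at P14. The core beta ring had 34.0 and 53.6 FPKM at P2, 34.7 and 35.2 FPKM at P7, and 72.0 and 49.7 FPKM at P14, so it exceeded the alpha ring in P2 replicate 2 and in P14 replicate 1. Next came the base, with 25.6 and 35.2 FPKM at P2, 24.2 and 24.8 FPKM at P7, and 46.3 and 36.9 FPKM at P14. In each of the 6 libraries the lid was lowest, at 18.8 and 26.4 FPKM at P2, 19.6 and 20.1 FPKM at P7, and 34.0 and 27.8 FPKM at P14.

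**Figure D2:**
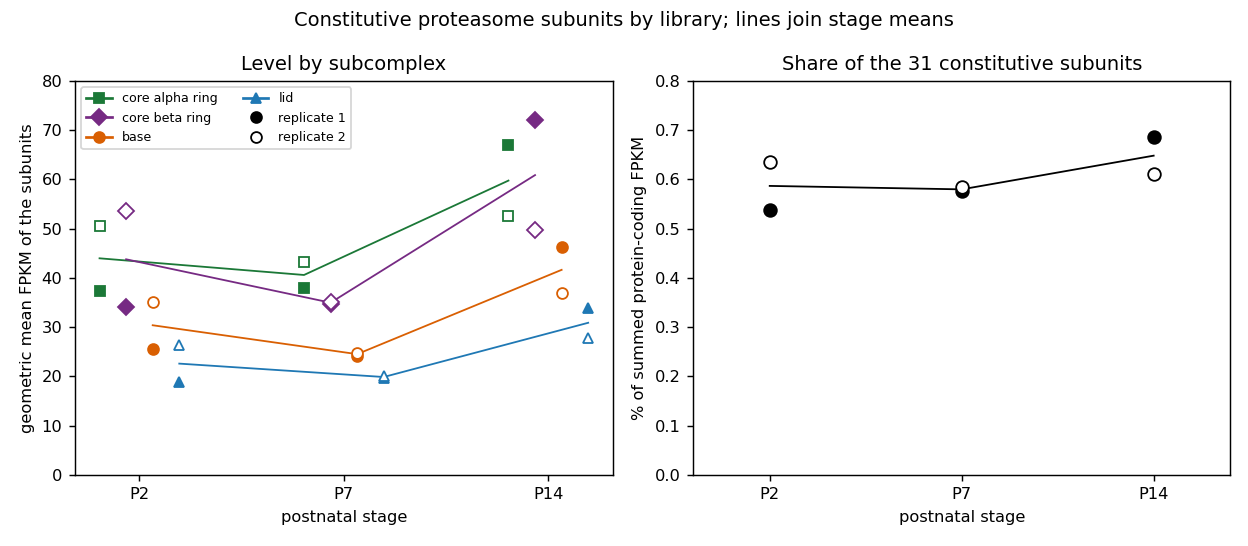
Left, geometric mean FPKM of the subunits of each subcomplex by stage, with filled symbols for replicate 1, open symbols for replicate 2 and lines through the stage means. Right, the summed FPKM of the 31 constitutive subunits as a percentage of all protein-coding FPKM; the P2 libraries stand at 0.538% and 0.636%, the P7 libraries at 0.576% and 0.584%, and the P14 libraries at 0.686% and 0.610%.

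Subunits of one complex were far from equal in RNA level. The alpha ring gene Psma3 was the highest of the 31 in 5 libraries and the catalytic subunit gene Psmb6 in P2 replicate 2, while the lid gene Psmd3 was the lowest in all 6. The ratio of the highest to the lowest level was 5.99 and 6.17 at P2, 9.08 and 12.6 at P7, and 13.3 and 10.8 at P14. The SD of log2 FPKM among the 31 was 0.65 and 0.64 at P2, 0.71 and 0.79 at P7, and 0.80 and 0.75 at P14. Subunit levels were thus spread more widely in every P7 and P14 library than in either P2 library.

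P14 muscle was compared with P2 muscle first, as the whole span of the study. Psma3 of the alpha ring, Psmb7 of the beta ring, Psmc6 of the base and Psme4 among the activators rose, no lid subunit or assembly factor was called, and no member was called lower. A gene was called at a Benjamini-Hochberg adjusted p below 0.05 in a limma fit of log2(FPKM + 1) over 13566 tested genes, of which 46 were members. The 4 members are 8.7% of those tested, against 11.5% of all tested genes called higher and 12.9% called lower, so the share of members called was near the background in the upward direction and at 0 in the downward one. At an unadjusted limma p below 0.05, 11 members were higher, against 18.5% of all genes, and 0 were lower, against 20.8%.

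Psma3, which encodes an alpha ring subunit (chr12:70974620-70996347, GRCm38), was at 67.8 and 86.8 FPKM at P2, 89.2 and 112 FPKM at P7, and 168 and 131 FPKM at P14. Both P14 libraries lay above all the others, with no overlap with P2. Its log2 difference was 0.94 ± 0.24 (SE; limma, adjusted p = 0.032), and it overlaps the transcript 3110056K07Rik on the other strand, which was at 2.56 to 4.19 FPKM, and has a near-identical pseudogene, Gm13835, at up to 4.22 FPKM.

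Psmb7, which encodes the subunit with the trypsin-like site (chr2:38588035-38644087), was at 44.8 and 64.2 FPKM at P2, 51.1 and 56.7 FPKM at P7, and 121 and 88.2 FPKM at P14. The P14 libraries again stood above all the others, and those of P2 and P7 overlapped. P14 exceeded P2 by 0.93 ± 0.25 on the log2 scale (limma, adjusted p = 0.039), and Nek6, which overlaps the gene on the other strand, was at 2.14 to 5.09 FPKM.

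Psmc6, which encodes an ATPase of the base (chr14:45329823-45349071), was at 33.8 and 43.5 FPKM at P2, 41.2 and 49.0 FPKM at P7, and 77.9 and 62.0 FPKM at P14. Its P14 libraries did not overlap with either earlier stage. The log2 difference between P14 and P2 was 0.84 ± 0.22 (limma, adjusted p = 0.035).

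Psme4, which encodes the large single-chain activator that caps the core particle in place of the regulatory particle (chr11:30771725-30880361), was at 23.4 and 27.0 FPKM at P2, 27.7 and 26.3 FPKM at P7, and 48.6 and 40.9 FPKM at P14. It was level over P2 and P7, whose libraries overlapped, and high in both P14 libraries. Its log2 difference of P14 from P2 was 0.80 ± 0.18 (limma, adjusted p = 0.022), and in the F test over the 3 stages it was the 1 member called (adjusted p = 0.038), against 21.1% of all tested genes. The pseudogene Gm12103, which lies on the other strand within its bounds, was at 1.23 to 3.73 FPKM.

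**Figure D3:**
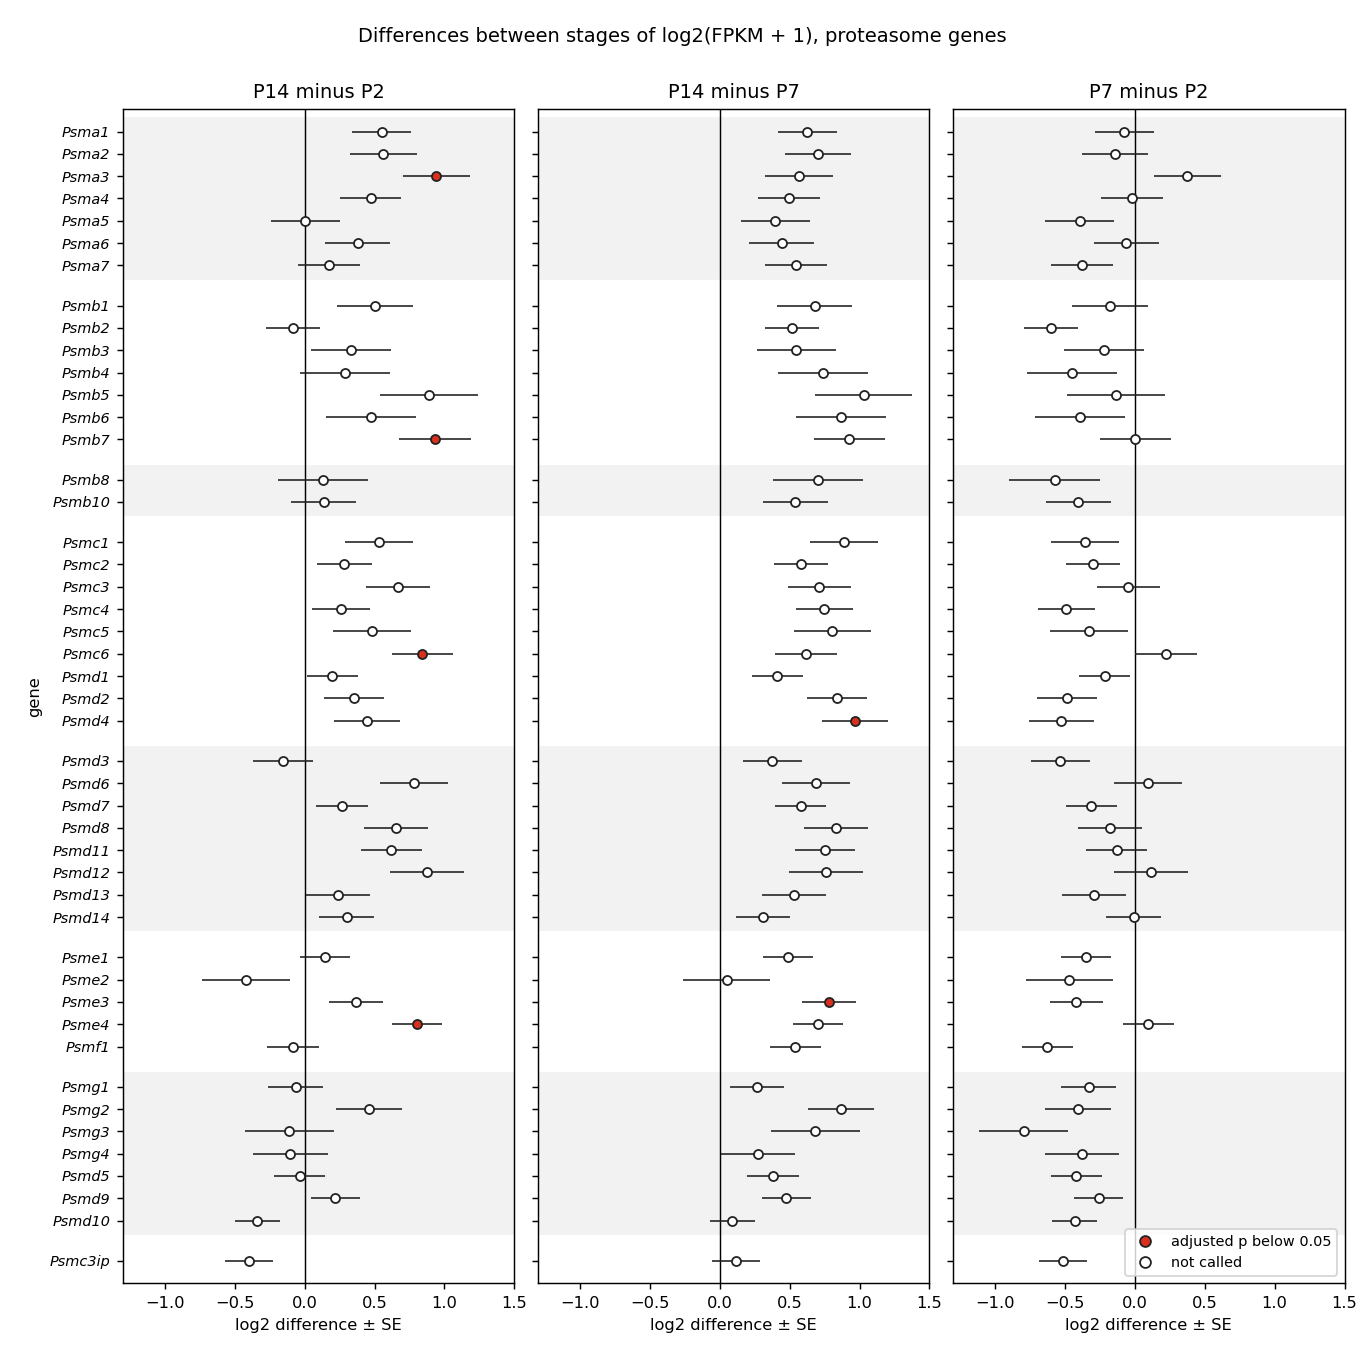
Difference of the stage means of log2(FPKM + 1) for each tested member, with the SE of the limma fit as bars, for P14 minus P2, P14 minus P7 and P7 minus P2. Filled points are called at an adjusted p below 0.05: Psma3, Psmb7, Psmc6 and Psme4 for P14 minus P2, Psmd4 and Psme3 for P14 minus P7, and none for P7 minus P2.

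Taken as a group, the members leaned upward without many calls. The median log2 difference of the 46 tested members between P14 and P2 was 0.32, against -0.05 for all tested genes, and 36 of 46 were above 0, against 46.6% of all genes, while 10 were below 0, against 53.3%. Of the 31 constitutive subunits, 29 were above 0, with a median of 0.47, but 30 were under median-of-ratios scaling, 25 under quantile normalization and 18 when libraries were scaled to their protein-coding sum. The exceptions as deposited were Psmb2 and Psmd3. The libraries of P14 lay wholly above those of P2 for 19 of 46 members, against 28.5% of all genes, and wholly below for 2, against 35.2%. The median of the members was -0.06 under protein-coding sum scaling, where that of all genes was -0.34, and -0.13 when libraries were scaled to the 31 subunits themselves. In each alternative run the members' median was above that of all genes, by 0.11 to 0.48. Scaling a library by 1 factor moves both medians almost alike, so such scalings hardly test this excess. It was smallest, 0.11, under quantile normalization. Among genes with an FPKM of at least 5, the median was 0.37 for the members and 0.07 for all genes. In that run 5 of 40 members were called higher, against 18.9% of all genes. Without P2 replicate 1, P7 replicate 1, P7 replicate 2, P14 replicate 1 or P14 replicate 2, the number of members called higher was 0, while 2.67% to 8.27% of all tested genes were called higher. Without P2 replicate 2 it was 13 of 46, against 17.1% of all tested genes.

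The spread within a stage was itself shared by the members. P2 replicate 2 exceeded P2 replicate 1 for 43 of 46 members, against 80.2% of all tested genes, with a median log2 gap of 0.42 against 0.25. P14 replicate 1 exceeded P14 replicate 2 for 44 of 46, against 69.5% of all genes, with a median gap of 0.28 against 0.13. P7 replicate 2 exceeded P7 replicate 1 for 30 of 46, against 51.9% of all genes, with a median gap of 0.10 against 0.01. What differed between the replicates was not tested.

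For the called members with a RefSeq entry, and for the catalytic pair Psmb5 and Psmb8 described further on, the sequence around the start of the gene was read from RefSeq for GRCm38.p6, as 250 bases before and 50 bases after the start. Of these, 7 windows are shown because they carry the starts of the genes whose RNA moved or that exchange with each other in the core particle; Psmb7 had no entry. Capitals mark each match, on either strand, to the antioxidant response element core TGACNNNGC, the interferon-stimulated response element core (GAAA, any 2 bases and GAAA), the gamma-activated site core TTCNNNGAA or the CCAAT box. In these windows 0 bases belonged to more than 1 match. The windows are chr12:70974373-70974672 on the plus strand for Psma3, chr14:45329574-45329873 plus for Psmc6, chr11:30771525-30771824 plus for Psme4, chr3:95042565-95042864 minus for Psmd4, chr11:101315963-101316262 plus for Psme3, chr14:54617946-54618245 minus for Psmb5 and chr17:34197945-34198244 plus for Psmb8.
Psma3: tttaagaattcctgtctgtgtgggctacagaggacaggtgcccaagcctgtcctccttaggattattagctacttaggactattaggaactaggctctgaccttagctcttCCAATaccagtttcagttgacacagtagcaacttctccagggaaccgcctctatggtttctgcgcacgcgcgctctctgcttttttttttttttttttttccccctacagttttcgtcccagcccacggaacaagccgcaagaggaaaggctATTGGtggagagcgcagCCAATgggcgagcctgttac
Psmc6: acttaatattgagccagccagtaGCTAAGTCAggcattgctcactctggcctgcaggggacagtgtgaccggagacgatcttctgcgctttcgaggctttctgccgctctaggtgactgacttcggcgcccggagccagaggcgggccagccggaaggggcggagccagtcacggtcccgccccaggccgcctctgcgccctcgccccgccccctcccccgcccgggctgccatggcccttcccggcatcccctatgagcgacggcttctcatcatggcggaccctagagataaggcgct
Psme4: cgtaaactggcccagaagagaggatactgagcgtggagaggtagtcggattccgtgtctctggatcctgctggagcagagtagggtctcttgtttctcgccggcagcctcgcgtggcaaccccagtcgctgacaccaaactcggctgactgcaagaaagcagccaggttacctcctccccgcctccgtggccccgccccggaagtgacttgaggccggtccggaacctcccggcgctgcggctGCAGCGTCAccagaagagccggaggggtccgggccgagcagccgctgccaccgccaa
Psmd4: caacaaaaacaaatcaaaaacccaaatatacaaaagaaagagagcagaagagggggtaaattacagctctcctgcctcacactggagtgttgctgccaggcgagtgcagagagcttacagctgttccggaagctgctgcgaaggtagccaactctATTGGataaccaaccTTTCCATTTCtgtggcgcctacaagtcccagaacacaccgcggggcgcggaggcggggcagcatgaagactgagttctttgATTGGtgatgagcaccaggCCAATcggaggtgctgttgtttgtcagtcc
Psme3: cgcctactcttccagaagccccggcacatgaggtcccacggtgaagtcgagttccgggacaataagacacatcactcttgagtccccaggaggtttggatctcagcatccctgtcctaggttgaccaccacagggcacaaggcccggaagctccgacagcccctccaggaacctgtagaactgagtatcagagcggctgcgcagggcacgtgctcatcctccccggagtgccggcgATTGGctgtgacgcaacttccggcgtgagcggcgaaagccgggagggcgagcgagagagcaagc
Psmb5: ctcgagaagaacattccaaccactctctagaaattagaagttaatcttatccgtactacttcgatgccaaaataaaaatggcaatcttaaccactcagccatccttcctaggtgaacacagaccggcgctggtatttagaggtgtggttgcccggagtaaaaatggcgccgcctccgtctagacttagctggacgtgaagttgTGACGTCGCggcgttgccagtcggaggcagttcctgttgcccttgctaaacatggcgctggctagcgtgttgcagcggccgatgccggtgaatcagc
Psmb8: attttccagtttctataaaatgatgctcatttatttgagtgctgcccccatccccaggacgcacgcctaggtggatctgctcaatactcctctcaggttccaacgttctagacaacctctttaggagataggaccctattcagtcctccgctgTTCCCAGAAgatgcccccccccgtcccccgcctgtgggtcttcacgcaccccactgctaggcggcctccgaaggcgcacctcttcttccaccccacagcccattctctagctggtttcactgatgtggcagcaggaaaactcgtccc

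A window was found for 42 of the 50 members, which had 45 windows in all. Shares of members are per gene, counting a match in any of its windows, while the share of all promoters is per window. The antioxidant response element core, part of the element bound by the transcription factor encoded by Nfe2l1, stood in 6 of the 42 (14.3%), against 12.4% of all 32851 promoter windows. Those 6 were Psmb5, Psmb6, Psmc6, Psmd12, Psmd9 and Psme4. Counted along the gene's strand with the start base as 0, the match began at -47 in Psmb5, at -9 in Psmb6 and at -7 in Psme4, and at -227 in Psmc6. The interferon-stimulated core stood in windows of 5 members (11.9%, against 3.44% of all windows), those of Psmb3, Psmd4, Psmd9, Psme1 and Psmg4. The gamma-activated core stood in 3 (7.14%, against 8.3%), those of Psmb8, Psmd2 and Psmg1, and began at -97 in Psmb8. That position is relative to the RefSeq start, and the Psmb8 window lies within the deposited bounds of the gene, chr17:34197720-34201454. The CCAAT box stood in 15 (35.7%, against 37.4%), with 3 matches each in the windows of Psma3 and Psmd4 shown above. These are matches of letters and not measured binding.

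In the alpha ring, whose subunits form the gate of the core particle, all 7 log2 differences between P14 and P2 were above 0, against 5 of 7 under quantile normalization or protein-coding sum scaling. Psma3 was the 1 called, and the median was 0.47, but 0.11 under quantile normalization and 0.09 under protein-coding sum scaling. Psma5 stood apart from its ring, at 26.0 and 35.5 FPKM at P2, 21.6 and 24.3 FPKM at P7, and 36.8 and 25.2 FPKM at P14. Its P14 libraries spanned those of P2, with a log2 difference of 0.00 ± 0.25 (limma, adjusted p = 0.99). The other 5 lay between 0.17 for Psma7 and 0.56 for Psma2, and none of these passed the test.

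In the beta ring, 6 of 7 differences between P14 and P2 were above 0, with a median of 0.48, against 5 of 7 under quantile normalization and 4 of 7 under protein-coding sum scaling. The median was 0.03 under quantile normalization and 0.10 under protein-coding sum scaling. Psmb7 was the 1 called. Psmb2, a subunit without a catalytic site, was at 39.1 and 48.3 FPKM at P2, 27.3 and 29.5 FPKM at P7, and 44.7 and 37.6 FPKM at P14. Its P14 and P2 libraries overlapped, and P14 differed from P2 by -0.08 ± 0.19 on the log2 scale (limma, adjusted p = 0.79). Both P7 libraries of Psmb2 lay below all the others, with a log2 difference of P7 from P2 of -0.60 ± 0.19 that did not pass the test (limma, adjusted p = 0.13). Of all tested genes, 53.9% had P7 libraries wholly below those of P2.

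All 9 genes of the base, the ATPases Psmc1 to Psmc6, the scaffold genes Psmd1 and Psmd2 and the ubiquitin receptor gene Psmd4, had differences between P14 and P2 above 0, against 8 of 9 under quantile normalization and 5 of 9 under protein-coding sum scaling. They ran from 0.20 for Psmd1 to 0.84 for Psmc6, with a median of 0.44, but 0.19 under quantile normalization and 0.07 under protein-coding sum scaling. Psmc3 had the second largest, 0.67 ± 0.23 (limma, adjusted p = 0.074), with 51.1 and 72.3 FPKM at P2, 58.9 and 59.0 FPKM at P7, and 106 and 89.2 FPKM at P14. Its P14 libraries did not overlap with P2. Slc39a13, on the other strand over part of Psmc3, was at 7.70 to 13.0 FPKM.

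In the lid, 7 of 8 differences between P14 and P2 were above 0, with a median of 0.46, against 4 of 8 under protein-coding sum scaling, and limma called 0. The median was 0.22 under quantile normalization and 0.09 under protein-coding sum scaling. Psmd12 came nearest, at 16.1 and 24.7 FPKM at P2, 19.2 and 24.6 FPKM at P7, and 43.3 and 32.4 FPKM at P14. Both its P14 libraries lay above the other 4, and the log2 difference of P14 from P2 was 0.88 ± 0.26 (limma, adjusted p = 0.053). Psmd6 followed with 0.78 ± 0.24 (limma, adjusted p = 0.058) and Psmd8 with 0.66 ± 0.23 (limma, adjusted p = 0.079). Psmd14, which encodes the deubiquitinating enzyme of the lid, was at 24.9 and 31.8 FPKM at P2, 26.6 and 29.5 FPKM at P7, and 37.7 and 32.4 FPKM at P14, a narrow range for the set. Its log2 difference of P14 from P2 was 0.30 ± 0.20 (limma, adjusted p = 0.30).

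The lid gene Psmd3 was the lowest constitutive subunit and one of the 2 below 0. It was at 11.3 and 17.1 FPKM at P2, 9.82 and 8.85 FPKM at P7, and 12.7 and 12.1 FPKM at P14. Its P14 libraries lay inside the range of P2, with a log2 difference of -0.15 ± 0.21 (limma, adjusted p = 0.62).

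P14 muscle was then set against P7 muscle, which covers the second week. Psmd4 of the base and Psme3 among the activators rose. They are 2 of the 46 tested members, or 4.35%, against 8.75% of all tested genes called higher, and 0 members were called lower, against 1.6%. At an unadjusted limma p below 0.05, 27 of 46 members were higher, against 27.7% of all genes, and 0 were lower, against 5.87%. All 46 differences were above 0, against 71.8% of all genes, and 0 were below 0, against 28.1%, with a median of 0.60 against 0.23. Under median-of-ratios scaling 43 of 46 were above 0, under quantile normalization 34 and under protein-coding sum scaling 34.

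Psmd4, the ubiquitin receptor of the base (chr3:95032693-95042614), was at 26.3 and 38.9 FPKM at P2, 23.2 and 20.8 FPKM at P7, and 48.9 and 39.5 FPKM at P14. The P7 libraries were the lowest and the P14 libraries the highest, with P2 replicate 2 just under P14 replicate 2. P14 exceeded P7 by 0.97 ± 0.23 on the log2 scale (limma, adjusted p = 0.048).

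Psme3, which encodes the nuclear activator of the core particle (chr11:101316212-101323537), was at 12.6 and 16.7 FPKM at P2, 11.6 and 9.70 FPKM at P7, and 19.2 and 18.8 FPKM at P14. Its 3 stages did not overlap, with P7 lowest and P14 highest. P7 also lay wholly below P2 for Psmd4, and for 53.9% of all tested genes on the deposited scale. For Psme3 the log2 difference of P14 from P7 was 0.78 ± 0.19 (limma, adjusted p = 0.049). Under median-of-ratios scaling both genes were called, and under quantile normalization the adjusted p from limma was 0.081 for Psmd4 and 0.14 for Psme3.

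The libraries of P14 lay wholly above those of P7 for 42 of 46 members, against 53.8% of all tested genes, and the exceptions were Psme2, Psmg1, Psmd10 and Psmc3ip. Of the 46, 0 had P14 libraries wholly below those of P7, against 15.3%. Among the constitutive subunits all 31 separated upward on the deposited scale, with log2 differences from 0.31 for Psmd14 to 1.03 for Psmb5. The median for the alpha ring was 0.55, for the beta ring 0.74, for the base 0.75 and for the lid 0.64. Under quantile normalization these medians were -0.08, 0.15, 0.27 and 0.12, and under protein-coding sum scaling 0.03, 0.23, 0.24 and 0.13, in the same order. Psmb5 had the largest difference but also a wide one, 1.03 ± 0.35 (limma, adjusted p = 0.097). The members' median was above that of all genes by 0.37, and by 0.12 to 0.57 over the alternatives. Scalings by 1 factor per library again hardly test this excess, and it was 0.12 under quantile normalization. The number of members called higher was 19 of 46 without P2 replicate 1, against 21% of all tested genes, and 18 without P2 replicate 2, against 21.4%. It was 0 without any 1 of the P7 or P14 libraries, where 0.052% to 0.569% of all tested genes were called higher.

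In the first week, P7 against P2, 0 members were called in either direction, against 0.111% of all tested genes called higher and 1.18% called lower. At an unadjusted limma p below 0.05, 0 members were higher, against 1.84% of all genes, and 6 were lower, against 25.6%. The median difference of the members was -0.33, with 40 of 46 below 0, but the median of all tested genes was -0.27 and 80% of them were below 0. Under median-of-ratios scaling, which by design brings the median of all genes near 0, the members' median was -0.02 and that of all genes -0.01. The members' median was thus close to that of the whole table on both scales. What shifted the whole table below 0 on the deposited scale was not tested. The 6 members above 0 were Psma3, Psmb7, Psmc6, Psmd6, Psmd12 and Psme4, of which 4 rose by P14. The libraries of P7 lay wholly below those of P2 for 21 of 46, against 53.9%, and wholly above for 1, Psma3, against 6.42%.

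The change from P7 to P14 was also tested against the change from P2 to P7 in the same fit. On the deposited scale all 46 members had a contrast above 0, and so a more positive change in the second week. The median difference of differences was 0.85, against 0.51 for all genes, of which 86.3% were above 0 and 13.7% below. Under quantile normalization the medians for P7 against P2 were 0.17, 0.01, -0.06 and 0.11 for alpha ring, beta ring, base and lid. For P14 against P7 they were -0.08, 0.15, 0.27 and 0.12, so the alpha ring went the other way. The contrast of each member under other scalings is not given here. At an adjusted p below 0.05, limma called 0 members, against 0.0369% of all genes higher and 0.0295% lower. At an unadjusted p below 0.05 it gave 17 members higher, against 24.2% of all genes, and 0 lower, against 1.17%. Psmd4 had the largest contrast, 1.49 ± 0.41 (limma, adjusted p = 0.16), and Psma3 the smallest, 0.19 ± 0.42 (limma, adjusted p = 0.77).

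Scaling each library to the geometric mean of the 31 constitutive subunits, a choice made after the data were seen, sets aside what the subunits share and leaves how they change against each other. On this scale limma called 2 members higher for P14 against P2, compared with 7.54% of all genes, and 7 were lower, against 35.3%. For P7 against P2, limma called 0 members higher and 0 lower on this scale, against 0.446% and 0.504% of all genes, and for P14 against P7 likewise 0 and 0, against 2.61% and 11.2%. At P14 relative to P2, Psma3 was higher by 0.48 ± 0.15 (limma, adjusted p = 0.036) and Psmb7 by 0.47 ± 0.13 (limma, adjusted p = 0.026). Relative to the 31, the log2 level of Psma3 was 1.30 and 1.15 at P2, 1.69 and 1.95 at P7, and 1.71 and 1.72 at P14. That of Psmb7 was 0.71 and 0.72 at P2, 0.89 and 0.98 at P7, and 1.23 and 1.15 at P14. For each gene all P7 and P14 libraries stood above both P2 libraries, and Psmb7 stood higher again at P14.

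Among the constitutive subunits, Psma5, Psmb2 and Psmd3 were the 3 called lower on this scale, on which the median of all tested genes was -0.40 for P14 against P2. The difference of P14 from P2 was -0.45 ± 0.14 for Psma5 (limma, adjusted p = 0.038), -0.54 ± 0.14 for Psmb2 (limma, adjusted p = 0.022) and -0.58 ± 0.16 for Psmd3 (limma, adjusted p = 0.026). Relative to the 31, Psmb2 stood at 0.51 and 0.31 at P2, -0.01 and 0.04 at P7, and -0.20 and -0.08 at P14. Psmd3 stood at -1.28 and -1.19 at P2, -1.49 and -1.70 at P7, and -2.02 and -1.71 at P14. For both genes the P2 libraries lay above all the later ones on this scale. The difference of P7 from P2 did not pass the test for either, at -0.39 ± 0.14 for Psmb2 (limma, adjusted p = 0.20) and -0.34 ± 0.16 for Psmd3 (limma, adjusted p = 0.30). The other 4 lower members were Psme2, Psmd5, Psmd10 and Psmc3ip, none of them a subunit of the core, base or lid.

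**Figure D4:**
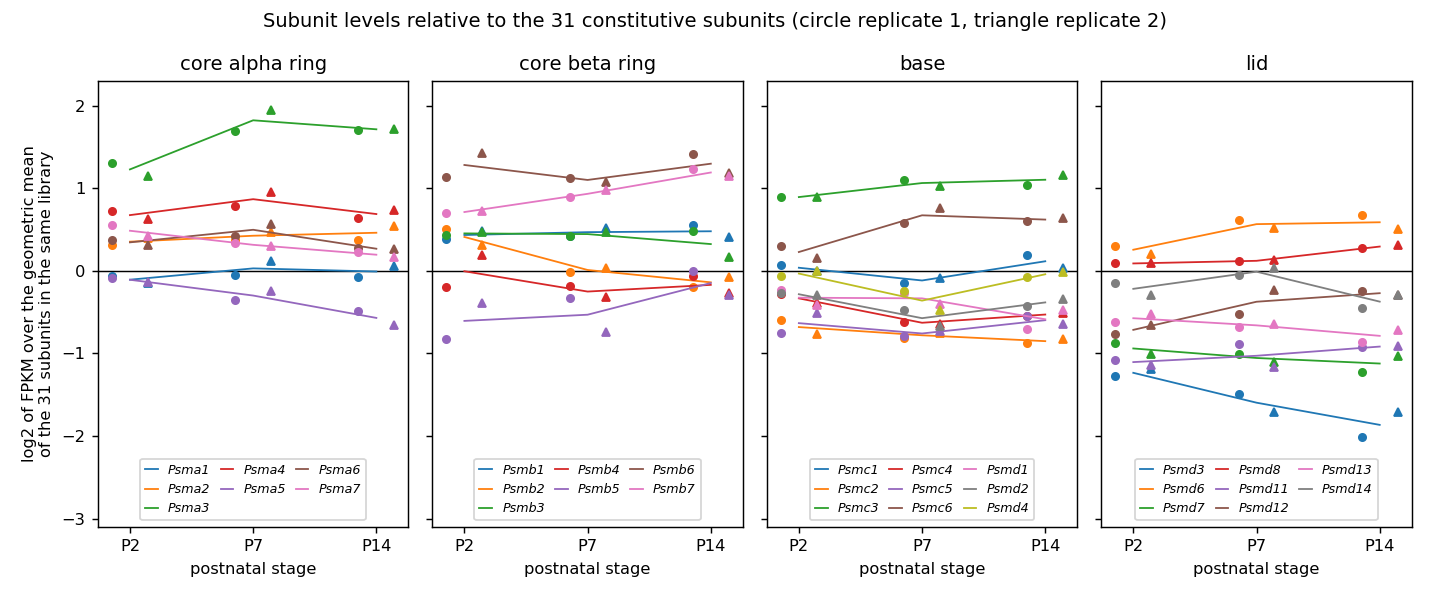
Log2 of each constitutive subunit's FPKM over the geometric mean of the 31 in the same library, by stage, with circles for replicate 1, triangles for replicate 2 and lines through the stage means. Psma3 and Psmb7 stand higher at P14 than at P2, and Psma5, Psmb2 and Psmd3 lower.

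The 3 catalytic sites of the core particle each have a constitutive and an inducible form, and in this muscle the constitutive form was the main RNA at every site. For the chymotrypsin-like site, Psmb5 was at 15.5 and 29.8 FPKM at P2, 22.0 and 17.3 FPKM at P7, and 51.3 and 32.5 FPKM at P14. Its inducible partner Psmb8 was at 0.894 and 2.42 FPKM at P2, 1.12 and 0.376 FPKM at P7, and 1.85 and 1.72 FPKM at P14. Psmb5 lay highest at P14, while the P14 libraries of Psmb8 lay inside the range of P2. As a share of the pair's summed FPKM, Psmb8 made up 5.45% and 7.50% at P2, 4.85% and 2.13% at P7, and 3.49% and 5.02% at P14.

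Psmb5 differed between P14 and P2 by 0.89 ± 0.35 on the log2 scale (limma, adjusted p = 0.11), and Psmb8 by 0.13 ± 0.32 (limma, adjusted p = 0.80). Neither passed the test, and the sign of Psmb8 turned to -0.09 under protein-coding sum scaling, to -0.30 without P2 replicate 1 and to -0.13 when scaled to the 31 subunits. Psmb5 passed under median-of-ratios scaling, with 0.99 ± 0.29 (limma, adjusted p = 0.041), and without P2 replicate 2, with 1.34 ± 0.31 (limma, adjusted p = 0.026). It was at 0.44 ± 0.31 without P2 replicate 1 (limma, adjusted p = 0.34), at 0.57 ± 0.40 without P14 replicate 1 (limma, adjusted p = 0.40) and at 0.52 ± 0.27 under protein-coding sum scaling (limma, adjusted p = 0.16).

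For the caspase-like site, Psmb6 was at 60.3 and 105 FPKM at P2, 60.3 and 60.7 FPKM at P7, and 137 and 90.3 FPKM at P14. P2 replicate 2 lay between the P14 libraries, and the log2 difference of P14 from P2 was 0.48 ± 0.32 (limma, adjusted p = 0.31). It ran from 0.0794 without P2 replicate 1 to 0.87 without P2 replicate 2, and was 0.0046 under quantile normalization and 0.0951 under protein-coding sum scaling. Its partner Psmb9 stayed below 1 FPKM in all 6 libraries, with 0.312 and 0.457 FPKM at P2, 0.743 and 0.497 FPKM at P7, and 0.722 and 0.871 FPKM at P14, and so was not tested. It made up 0.432% to 1.22% of the pair. The P14 libraries of Psmb9 lay above those of P2. Tap1, which overlaps Psmb9 by 212 bases on the other strand, was at 0.559 to 1.24 FPKM.

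For the trypsin-like site, the inducible Psmb10 was at 1.87 and 3.20 FPKM at P2, 1.96 and 1.33 FPKM at P7, and 3.12 and 2.55 FPKM at P14, so its P14 libraries lay within the range of P2. Its log2 difference of P14 from P2 was 0.14 ± 0.23 (limma, adjusted p = 0.69), and the sign turned to -0.13 under protein-coding sum scaling, to -0.14 without P2 replicate 1 and to -0.19 when scaled to the 31 subunits. Psmb7, its partner, rose, as given above. Psmb10 made up 4.01% and 4.75% of the pair at P2, 3.70% and 2.29% at P7, and 2.51% and 2.81% at P14, lower in both P14 libraries than in both P2 libraries. The difference between the partners' changes was not tested.

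**Figure D5:**
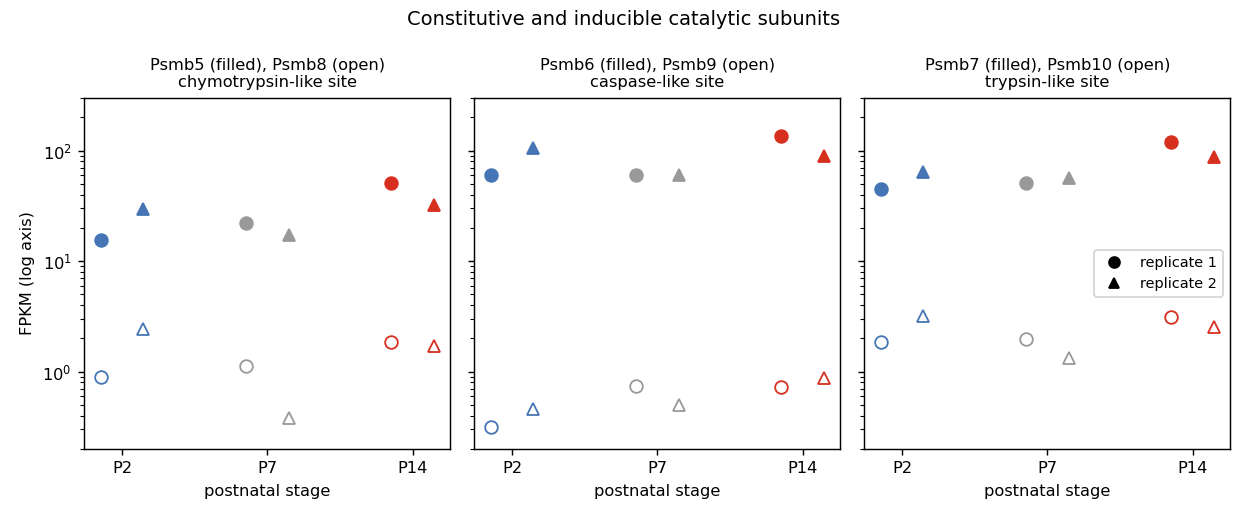
FPKM (log axis) of the constitutive (filled) and inducible (open) subunit for each catalytic site by stage, with circles for replicate 1 and triangles for replicate 2. The inducible form is below the constitutive one in every library, and Psmb8 makes up between 2.13% and 7.50% of its pair.

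Genes that work with the inducible subunits were tested as a list. Of 21 tested genes of class I antigen presentation and interferon response, limma called 4 higher and 0 lower for P14 against P2, compared with 11.5% and 12.9% of all tested genes, with a median of 0.22. The 4 were the interferon receptor gene Ifngr2, at 0.98 ± 0.27 (limma, adjusted p = 0.042), the GTPase gene Gbp3, at 0.88 ± 0.20 (limma, adjusted p = 0.022), and, named after their values were seen, Gbp2 and the peptidase gene Erap1. Igtp, whose difference exceeded those of Gbp2 and Erap1 in absolute size, went the other way. It was at -0.75 ± 0.23 and did not pass the test (limma, adjusted p = 0.054). Among 8 tested antigen-presenting and pan-leukocyte markers, Cd74 and H2-Aa were higher and Ptprc, Laptm5 and Coro1a lower, and the summed level of the 10 listed was 26.4 and 23.1 FPKM at P2, 26.8 and 13.3 FPKM at P7, and 23.1 and 20.2 FPKM at P14. P7 replicate 2, the lowest of these, was also the lowest library for Psmb8 and Psmb10, but not for Psmb9, which was lowest in P2 replicate 1 at 0.312 FPKM. Psmb8 and Psmb10 were highest in P2 replicate 2, where the summed level was below that of P2 replicate 1. The 12 lymphocyte markers summed to 4.50 and 4.26 FPKM at P2, 6.41 and 1.68 FPKM at P7, and 1.97 and 1.91 FPKM at P14, with 0 of the 12 at 0 in every library, and the 10 macrophage markers summed to 65.3 to 126 FPKM. Their part in the levels of the inducible subunits was not tested.

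The activators open the gate of the core particle. Psme1 and Psme2 encode the partners of the interferon-inducible activator ring. Psme1 was at 12.5 and 15.4 FPKM at P2, 9.72 and 11.8 FPKM at P7, and 15.1 and 15.8 FPKM at P14, with a log2 difference of P14 from P2 of 0.14 ± 0.18 (limma, adjusted p = 0.58). Psme2 was at 14.8 and 27.5 FPKM at P2, 11.9 and 17.3 FPKM at P7, and 16.2 and 13.7 FPKM at P14, and differed by -0.42 ± 0.31 (limma, adjusted p = 0.36). P2 replicate 2 was the highest library for Psme2, and its other 5 libraries overlapped. Against the 31 subunits P14 differed from P2 by -0.85 ± 0.20 for Psme2 (limma, adjusted p = 0.016), the largest such difference among the members.

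Psmf1, which encodes an inhibitor of the core particle, was low, at 5.09 and 4.63 FPKM at P2, 3.29 and 2.36 FPKM at P7, and 5.07 and 4.03 FPKM at P14. Its P7 libraries lay below all the others, and 53.9% of all tested genes had P7 wholly below P2. The log2 difference of P7 from P2 was -0.62 ± 0.18 (limma, adjusted p = 0.11), and that of P14 from P2 was -0.08 ± 0.18 (limma, adjusted p = 0.77).

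The 7 assembly factors help to build the complex and leave it, and their RNA was mostly lower than that of the subunits, between 1.58 and 12.9 FPKM. Their median log2 difference between P14 and P2 was -0.06, with 2 of 7 above 0 and limma calling 0, but the median was 0.025 under median-of-ratios scaling and -0.39 under protein-coding sum scaling, where 2 of 7 were called lower. Psmg2, which helps to build the alpha ring, had the largest, 0.46 ± 0.24 (limma, adjusted p = 0.19), with 12.9 FPKM in P14 replicate 1 and 4.75 to 7.95 FPKM in the other libraries. Psmd10, a chaperone of the base, had the lowest, -0.34 ± 0.16 (limma, adjusted p = 0.17), at 4.76 and 5.23 FPKM at P2, 3.22 and 3.69 FPKM at P7, and 4.18 and 3.32 FPKM at P14. Both its P2 libraries lay above the other 4, and Psmd10 with Psmc3ip made up the 2 tested members whose P14 libraries lay wholly below those of P2. Against the 31 subunits, P14 differed from P2 by -0.71 ± 0.17 for Psmd10 (limma, adjusted p = 0.015) and by -0.44 ± 0.14 for Psmd5, another chaperone of the base (limma, adjusted p = 0.044). The median of all tested genes on that scale was -0.40.

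Psma8 and Psmb11, core subunits known from testis and from thymus, reached at most 0.303 and 0.0788 FPKM, and Psme2b at most 0.529 FPKM. With Psmb9, these are the 4 members that did not reach 1 FPKM in at least 2 libraries. Psmc3ip was at 1.27 to 2.56 FPKM, with a log2 difference of P14 from P2 of -0.40 ± 0.17 (limma, adjusted p = 0.13).

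Beyond the Psm symbols, 11 further proteasome-associated genes were tested, Adrm1 and Shfm1 among them. Between P14 and P2, 2 were higher and 0 lower, against 11.5% and 12.9% of all tested genes, with a median of 0.20. Zfand5, which encodes an activator of the proteasome, was at 26.2 and 32.9 FPKM at P2, 35.5 and 41.4 FPKM at P7, and 72.4 and 59.3 FPKM at P14, and rose by 1.13 ± 0.21 on the log2 scale (limma, adjusted p = 0.012). AI314180, which encodes the adaptor that joins the core and regulatory particles, was at 31.5 and 39.8 FPKM at P2, 42.5 and 42.8 FPKM at P7, and 77.5 and 61.4 FPKM at P14, and rose by 0.94 ± 0.21 (limma, adjusted p = 0.020). Pomp, the maturation factor of the core particle, differed by 0.84 ± 0.29 without passing the test (limma, adjusted p = 0.079), and passed under median-of-ratios scaling (adjusted p = 0.020).

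Of the 11 genes of ubiquitin shuttles and the p97 machine, limma called 0 in either direction for P14 against P2, with a median of 0.16. The shares of all tested genes were 11.5% higher and 12.9% lower. The segregase gene Vcp differed by 0.36 ± 0.23 (limma, adjusted p = 0.29) and the shuttle gene Ubqln2 by -0.46 ± 0.17 (limma, adjusted p = 0.091).

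Of the 10 tested genes for factors known to act on proteasome gene transcription, limma called 1 higher and 1 lower for P14 against P2. These counts are near the shares of all tested genes, 11.5% higher and 12.9% lower. Nfe2l1 encodes the factor known to induce proteasome genes when proteolysis is impaired, and it was at 26.1 and 35.6 FPKM at P2, 25.2 and 28.4 FPKM at P7, and 54.0 and 65.0 FPKM at P14. Its P14 libraries lay above the other 4, with a rise over P2 of 0.93 ± 0.22 (limma, adjusted p = 0.024) and over P7 of 1.12 ± 0.22 (limma, adjusted p = 0.032, but 0.068 under protein-coding sum scaling and 0.087 under quantile normalization). Ngly1, whose product removes sugar chains from that factor, differed between P14 and P2 by 0.56 ± 0.17 (limma, adjusted p = 0.056). Nfya, a subunit gene of the factor that binds CCAAT boxes, fell, with a log2 difference of -0.76 ± 0.16 (limma, adjusted p = 0.018), at 8.33 and 8.80 FPKM at P2, 6.13 and 5.08 FPKM at P7, and 4.96 and 4.39 FPKM at P14.

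In the authors' deposited table of P14 against P2, an unadjusted p-value below 0.05 was given for 22 of the 46 members as higher and 0 as lower, against 19.4% and 14% of the tested genes. For P14 against P7 the authors' deposited table had 20 higher and 0 lower, against 17% and 9.76%. For P7 against P2 the authors' deposited table had 4 higher, Psma3, Psmc6, Psmd12 and Psmd6, and 0 lower, against 6.17% and 7.06%. Psma3 had a fold of 2.08 between P14 and P2 in the authors' deposited table, Psmb7 2.07, Psmc6 1.95 and Psme4 1.90. Folds in the authors' deposited tables are on a scale set for each comparison, on which Psma3 is 1.65 for P7 over P2, so they are not to be joined to the FPKM given above.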

How the data were processed

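Total RNA was extracted with Trizol and 200 ng entered a stranded kit with ribosomal depletion, per the labels' protocols. FPKM values per gene are the authors' own; the submitters' processing notes list CASAVA 1.2-14, FastQC 0.10.1, TopHat2 2.0.8 and Cufflinks 2.2.1, with GRCm38 as the build. The notes do not say how the FPKM deposited by the authors were scaled between libraries, and whether counting used the strand is not given in the sources used here, so reads of a gene and of its antisense neighbour may not be told apart. The authors' comparison tables hold a ratio (fold) and an unadjusted p-value per gene from Cuffdiff 2.2.1, per the submitters' processing notes and the file headers.

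Absolute depth is unknown. From the smallest steps of low FPKM values, the library size used in scaling was estimated relative to P2 replicate 1. It was between 72.5% (P14 replicate 1) and 96.5% (P2 replicate 2). This equals relative depth only if FPKM were scaled by each library's own number of fragments, which is not stated.

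Genes with at least 1 FPKM in at least 2 of the 6 libraries (13566, of which 46 are members) were fitted as log2(FPKM + 1) with limma 3.58.1 in R 4.3.3, with 1 mean per stage, all 6 libraries and a variance trend, on 3 residual and 3.8 prior degrees of freedom. P-values were adjusted over all tested genes by Benjamini-Hochberg. A fold on this scale understates the change of low genes. The labels call the libraries biological replicates but do not tie them to animals, so the p-values measure the spread between these libraries. The step was tested on simulated data. The alternatives were other pseudocounts, filters and scalings, no variance trend, a replicate block, leaving out each library, and the 4 libraries of a comparison alone.

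Values are given for every called member and the catalytic pairs; other members were picked from their values. The members and lists were chosen with earlier results of these data known. The result of 1 gene list is not reported here. Overlaps were read from GENCODE release M21, in which 24 of the 50 members overlap another gene, 19 of them one on the other strand. With BLAST 2.17.0, 10 members had a near-identical pseudogene (at least 95% identity over at least 200 bases), of which Gm13835 (Psma3) and Gm6542 (Psma4) reached 1 FPKM.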

Additional observations from a re-analysis of the deposited data

How the results depend on the processing

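For P14 against P2, where limma called 4 members higher, the count was 16 under median-of-ratios scaling (20% of all tested genes), 7 under quantile normalization (16.3%), 1 with no filter on low values (2.1%), 2 when scaled to the 31 subunits (7.54%), and 0 with only the 4 libraries compared or with the replicate block (9.01% and 8.2%); leaving out 1 library gave 0 to 13. Psma3, Psmb7, Psmc6 and Psme4 passed under all 3 planned scalings, and their adjusted p-values ran from 0.00411 to 0.201 over all alternatives. The number called lower was 1 under quantile normalization (Psmb2; 15.3% of all), 6 under protein-coding sum scaling (36.7%) and 7 when scaled to the 31 subunits (35.3%). The members' median was 0.10 under quantile normalization, -0.0595 under protein-coding sum scaling, -0.13 when scaled to the 31 subunits and 0.11 to 0.57 with 1 library left out. Its excess over all genes was 0.11 under quantile normalization and 0.25 to 0.48 with 1 library left out. Psmb8 was at -0.0917 under protein-coding sum scaling, -0.13 when scaled to the 31 subunits and -0.295 to 0.56 with 1 library left out; Psmb10 was at -0.13, -0.19 and -0.14 to 0.41.

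For P7 against P2, the members' median was -0.0195 under median-of-ratios scaling, -0.0559 under quantile normalization and -0.49 to -0.0505 with 1 library left out. Its difference from all genes was -0.25 with no filter and -0.10 to 0.10 with 1 library left out, the sign turning without P2 replicate 2. The number called lower was 0 to 2, with Psmd3 and Psmg3 called without P2 replicate 1 (8.12% of all).

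For P14 against P7, where 2 members were called higher, the count was 1 with a pseudocount of 0.1, 10 among genes with an FPKM of at least 5 (21.6% of all), 4 under median-of-ratios scaling (9.56%), 21 with only the 4 libraries compared (23.1%), 0 to 19 with 1 library left out, and 0 with no filter, quantile normalization, protein-coding sum scaling, the replicate block or scaling to the 31 subunits. The share of all genes called higher was 8.15% with the pseudocount of 0.1, 4.72% under quantile normalization and 3.87% under protein-coding sum scaling. It was 1.65% with the replicate block and 2.61% when scaled to the 31 subunits. With no filter it was 0.00678%, or 2 of 29496 genes, so the count of 0 there cannot set the members apart from other genes. The members' median was 0.39, 0.12 and 0.12 under median-of-ratios, quantile and protein-coding sum scaling. It was -0.0144 when scaled to the 31 subunits and 0.44 to 0.75 with 1 library left out. Its excess over all genes was 0.57 with no filter, 0.26 at an FPKM of at least 5, 0.12 under quantile normalization, 0.27 when scaled to the 31 subunits and 0.25 to 0.47 with 1 library left out.

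In the F test, with 1 member called, the count was 0 with no filter or the replicate block, 4 at an FPKM of at least 5, 13 under median-of-ratios scaling, 4 under quantile normalization, 5 under protein-coding sum scaling, 2 with no variance trend, 3 when scaled to the 31 subunits and 0 to 15 with 1 library left out. For the second week minus the first it was 0 to 8 with 1 library left out. In the main fit, the F test called 21.1% of all tested genes. Shares of all genes under the alternatives are not given here for the F test or the week contrast. Whether the members' counts only follow those of all genes was therefore not tested. The cause of the shifts in these counts was not tested either. Numbered as in the titles of the samples, same-numbered libraries had deviations from their stage means that correlated at -0.16 to 0.03 over genes. The deposited column names number some libraries otherwise, and a pairing by those numbers was not checked. Under the replicate block, which used the numbers of the titles, the adjusted p from limma was 0.0732 for Psma3, 0.0811 for Psmb7, 0.0775 for Psmc6 and 0.06 for Psme4.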
